A study of Mus musculus with 45 samples.

Results

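The genes that put peptides on the cell surface for CD8+ T cells, the major histocompatibility complex (MHC) class I presentation genes, were followed through 4 tissues of mice with and without breast tumors. The members were taken by name: the light chain gene B2m, the heavy chain genes H2-K1, H2-D1, H2-T23 and H2-M3, the peptide transporter genes Tap1 and Tap2, the tapasin gene Tapbp, the peptidase gene Erap1, and the transactivator gene Nlrc5. All 10 were found among the 55367 gene symbols of the count table, and all 10 passed the filter on low counts in every tissue.

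RNA was taken 14 days after tumor inoculation from female Balb/c mice. Tumor-bearing mice had received 2000000 67NR, 4T07 or 4T1 cells orthotopically in 50 uL of PBS, and Control mice carried no tumor. Primary tumors (67NR, 4T07 and 4T1) and the lungs, spleens and scaffolds of all 4 kinds of mice made 15 groups of 3 libraries, 45 in all. A scaffold is a porous disk of polycaprolactone placed under the skin, which fills with host cells and serves as an engineered metastatic niche; scaffolds went in at 7 to 8 weeks of age and 2 weeks before the cells. The 3 triple negative breast cancer lines came from 1 spontaneous mammary tumor: 67NR is nonmetastatic, 4T07 is invasive but nonmetastatic, and 4T1 is metastatic. Each degree of metastatic potential was therefore represented by 1 line, so that the degree and the line cannot be told apart.

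MHC class I molecules hold a short peptide between the arms of a heavy chain that is paired with beta-2 microglobulin, the product of B2m. Cytosolic proteins are cut by the proteasome, the fragments are pumped into the endoplasmic reticulum by the Tap1-Tap2 transporter, trimmed by Erap1, and loaded onto the heavy chain with the help of tapasin. H2-K1 and H2-D1 are classical heavy chains that are read by CD8+ T cells, whereas H2-T23 (Qa-1) is a ligand of the inhibitory NK cell receptor CD94/NKG2A and H2-M3 presents N-formylated peptides. Interferon gamma, acting in part through Irf1, and Nlrc5, which is recruited to an upstream enhancer called the SXY module, are the known inducers of these genes. Tumors that lose class I molecules can escape CD8+ T cells.

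The promoters of 3 heavy chain genes are shown because theirs were the member windows that held at least 3 of the 4 kinds of motif searched. The heavy chain gene H2-T23 had a window that did not. The motifs searched, on both strands, were an interferon-stimulated response element core (GAANNGAAA), an NF-kB site (GGGANTTCC), and the X2 box (TGACGC) and Y box (ATTGG) of the SXY module. The windows covered 250 bases before to 50 after each start in RefSeq on GRCm38.p6, which holds sequence of another mouse strain than Balb/c. A window was found for 8 of the 10 members, and none for Tap2 and Nlrc5. The stretches below run 5′ to 3′ on the strand of the gene, from 5 bases before the first motif to 5 bases after the last, with the motifs in capitals (the response element reads TTTCACTTC on this strand, and CCAAT is a Y box on the other). They lie at chr17:34000330-34000442 (minus strand) for H2-K1, chr17:35262939-35263050 (plus strand) for H2-D1 and chr17:37270100-37270222 (plus strand) for H2-M3.
H2-K1: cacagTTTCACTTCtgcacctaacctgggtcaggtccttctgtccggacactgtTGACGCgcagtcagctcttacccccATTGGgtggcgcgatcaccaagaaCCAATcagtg
H2-D1: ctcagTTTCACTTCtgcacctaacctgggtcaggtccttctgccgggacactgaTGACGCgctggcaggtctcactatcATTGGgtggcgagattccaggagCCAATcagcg
H2-M3: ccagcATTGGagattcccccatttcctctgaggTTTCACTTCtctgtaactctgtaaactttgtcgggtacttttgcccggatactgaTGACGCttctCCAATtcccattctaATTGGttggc

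No member window held the NF-kB letters, so any with at least 3 kinds of motif had to hold the other 3. That all 3 shown windows held the core, the X2 box and a Y box follows from this and from the choice of windows. These came in that order from the core onward. Among all 32851 windows of this length, 7.52% held the response element core, 1.68% the NF-kB letters, 7.4% the X2 box and 37.4% a Y box. B2m, H2-T23 and Tap1 held 1 Y box each and none of the other motifs, Tapbp held 2 Y boxes, and Erap1 held none of the 4. The NF-kB letters were in none of the 8 windows. These matches describe letters within the window only. Of the 10 members, 7 lie on chromosome 17, B2m on 2, Nlrc5 on 8 and Erap1 on 13.

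Total counts per library ran from 3491888 to 8175380, with a median of 5149589, and a level of 3 counts therefore corresponded to between 0.367 and 0.859 counts per 1000000 counts of a library (CPM). Levels below are CPM of each library's total, and fold changes come from a negative binomial fit that also scales libraries by their composition (TMM factors from 0.857 in 4T1 spleens to 1.15 in 67NR spleens), so a fold change can depart from the ratio of CPM means. A change is written as log2 of the first group over the second, with its standard error (SE). Cell type markers (12 lists) were checked against the labelled tissues: lung epithelium markers summed to at least 5693 CPM in every lung and to at most 419 CPM elsewhere, and B cell markers were highest in spleens of Control and 67NR mice. In the scaffolds, 4T07 replicate 1 stood apart, with neutrophil markers at 8099 CPM and erythroid markers at 25114 CPM, and 4T07 tumor replicate 1 did so among tumors, with 4882 and 22223 CPM. Reads of class I heavy chains are hard to assign, because the chains are close copies of each other and Balb/c mice carry the d haplotype of genes that the mouse reference carries as b. In the last 400 bases of the annotated transcripts, 12.3% of 50-base words of H2-D1, 17.4% of those of H2-T23 and 0.57% of those of H2-K1 also occurred in other genes. Among the genes holding words of H2-D1, H2-K1 was the only one named as a class I heavy chain. No gene so named held words of H2-T23, and the words of H2-K1 were shared with H2-D1 alone. These shares therefore do not measure how far reads of heavy chains mix. H2-D1 and H2-K1 levels may still hold reads of each other or of other d-haplotype heavy chains such as H2-L, which was not analysed here. The heavy chain values are uncertain in that respect.

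Each member had its highest group mean in the 4T07 primary tumors. For H2-K1, H2-D1, H2-T23, Tap1, Erap1 and Nlrc5, the 3 libraries of these tumors did not overlap those of the group next in order. For H2-T23, however, Control spleens (up to 5.83 CPM) and 4T1 scaffolds (up to 5.21), further down the order, reached above the lowest of these tumors (4.62). The shares of all genes with these patterns were not counted. Tap1 stood at 349, 328 and 311 CPM in 4T07 tumors, above the 67NR spleens (147, 167 and 137) and the 4T07 lungs (162, 141 and 123) that came next. For B2m, Tap2, Tapbp and H2-M3, the ranges of the first and second groups overlapped, and B2m reached its highest single value, 4387 CPM, in a 4T1 scaffold. Without tumors, the tissues already differed. B2m was 2632 ± 36.9 CPM (SD, n = 3) in Control scaffolds, 2039 ± 133 CPM (SD, n = 3) in spleens and 1459.8 ± 84.2 CPM (SD, n = 3) in lungs, 3 ranges without overlap. Nlrc5, in contrast, was lowest in Control lungs (2.96, 4.69 and 5.34 CPM) and scaffolds (4.20, 4.91 and 5.98) and highest in Control spleens (17.3, 19.2 and 15.7).

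Tissues of 1 kind of mouse may come from the same animals, which the labels do not say, and the fit across all 45 libraries treats every library as independent, so its p-values between tissues take no account of shared animals. In that fit, 4 members were higher in Control scaffolds than in Control lungs (B2m, H2-D1, H2-M3 and Tapbp), against 19.6% of all genes, and none was lower, against 19.4% (0 at an unadjusted p under 0.05 and 0 by DESeq2). Scaffolds against spleens gave 3 higher members (B2m, H2-D1 and Erap1; 21.1% of genes) and 4 lower ones (Tap1, Tap2, Tapbp and Nlrc5; 19.8% of genes). Lungs against spleens gave 6 lower members (B2m, H2-T23, H2-M3, Tap1, Tapbp and Nlrc5; 23.1% of genes) and none higher (22.6% of genes; 0 at an unadjusted p under 0.05 and 0 by DESeq2). The widest of these gaps was that of Nlrc5 between lung and spleen (log2 fold change -2.05 ± 0.30 (SE), adjusted p = 2.01e-07), followed by Tap1 (log2 fold change -1.66 ± 0.24 (SE), adjusted p = 1.97e-07). Some of these calls were lost without a single library or under another setting. Between scaffold and lung, H2-M3 was lost without scaffold replicate 1 or lung replicate 1 or 3 (adjusted p up to 0.258), and Tapbp by DESeq2, with its size factors in edgeR, without the count filter and without scaffold replicate 2 or 3 or lung replicate 1 or 2 (up to 0.355). Between scaffold and spleen, Tap2 was lost without scaffold replicate 1 or 3 or spleen replicate 1 or 2 (up to 0.347), Tapbp without scaffold replicate 1 or spleen replicate 3 (up to 0.149), and Erap1 without the count filter, scaffold replicate 1 or spleen replicate 2 or 3 (up to 0.191). Between lung and spleen, B2m was lost without lung replicate 3 or spleen replicate 1 (up to 0.103), and H2-T23 without the count filter, lung replicate 1 or 2 or spleen replicate 1 (up to 0.611).

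**Figure D1:**
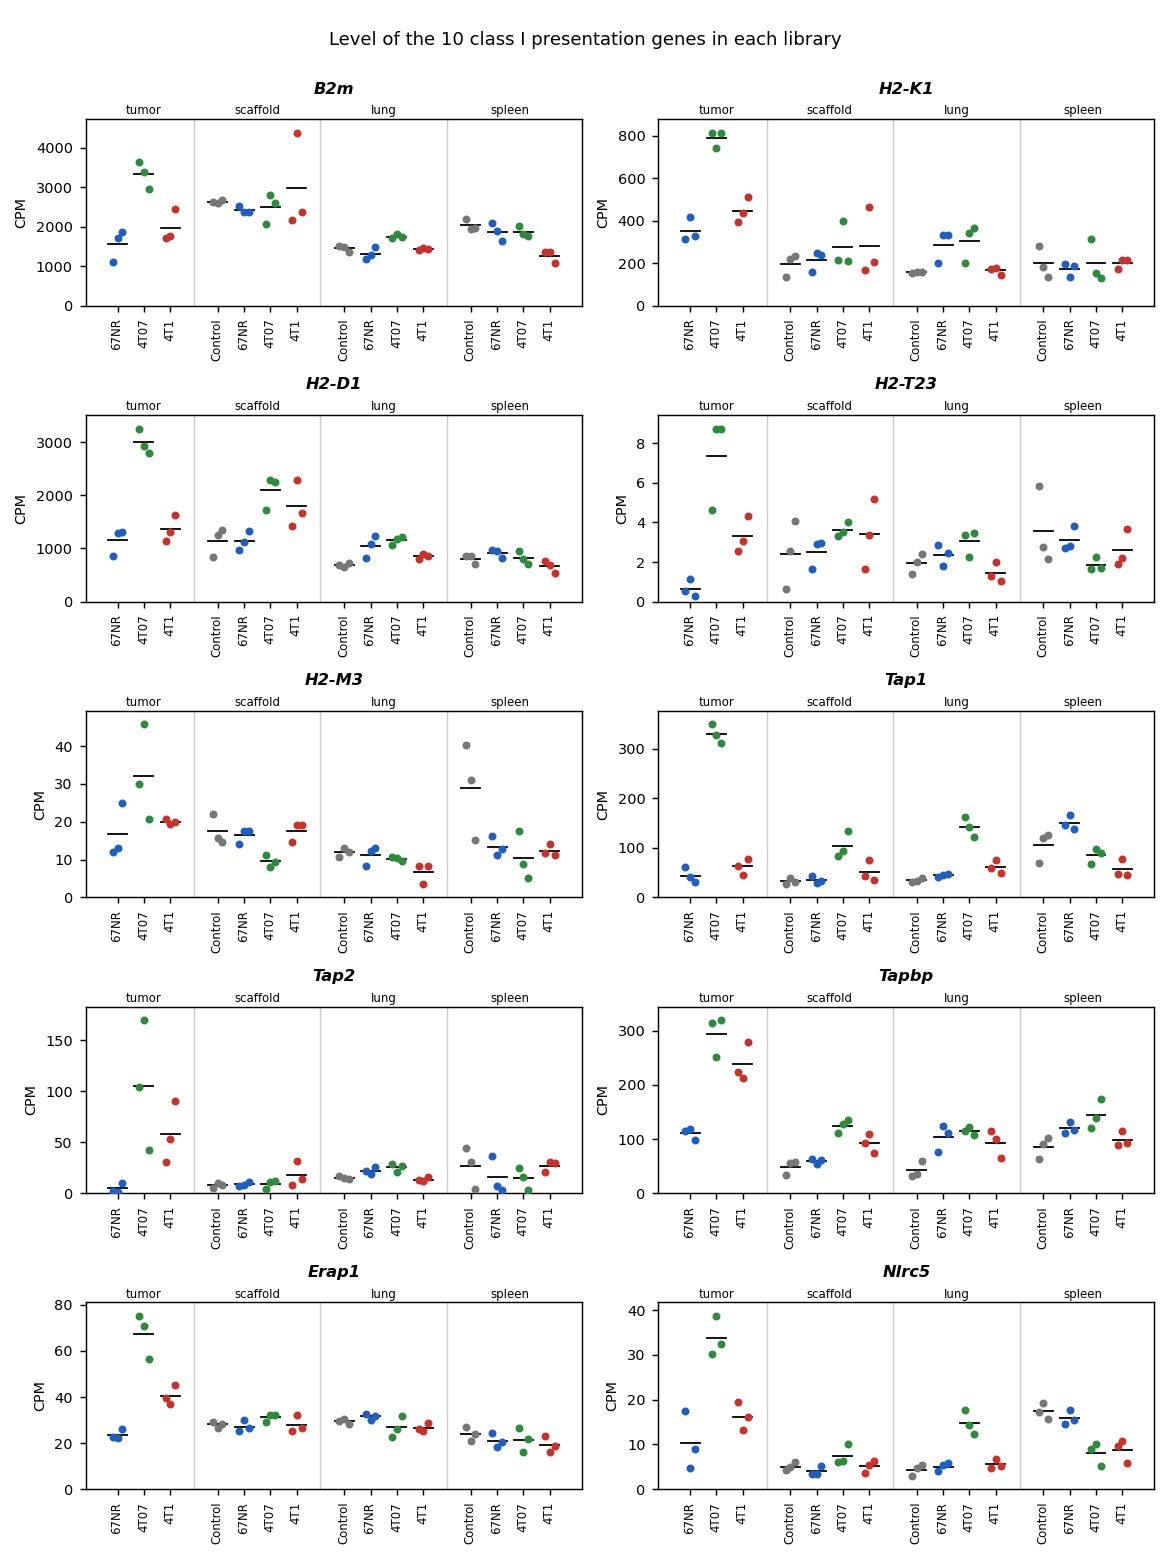
Level of each of the 10 members (CPM, linear axis from 0) in all 45 libraries, by tissue and group; points are libraries and short lines group means. The 4T07 tumors have the highest mean in every panel, with Tap1 between 311 and 349 CPM there and no higher than 167 CPM elsewhere.

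The first comparison asked how tumors of the invasive lines differed from 67NR tumors. In 4T07 tumors 9 of the 10 members rose against 67NR tumors, the exception being H2-M3, while 22.9% of the 20508 genes tested rose and 18.5% fell. The median member was 1.21 higher on the log2 scale, against 0.16 for all genes. In 4T1 tumors 4 members rose against 67NR (H2-T23, Tap2, Tapbp and Erap1), against 16.7% of genes, with a median of 0.39 against 0.09. No member fell in either comparison (0 at an unadjusted p under 0.05 and 0 by DESeq2), against 18.5% and 14.8% of genes. The second comparison set the metastatic line against the invasive nonmetastatic one: 5 members were lower in 4T1 than in 4T07 tumors (H2-K1, H2-D1, Tap1, Erap1 and Nlrc5), against 6.98% of genes, and none was higher, against 7.69% (0 at an unadjusted p under 0.05 and 0 by DESeq2). The median member was -0.79 there and the median gene -0.05. These comparisons share libraries, so each is given with its own values. In bulk tissue, fewer cells of a type and less RNA per cell cannot be told apart.

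The light chain B2m stood at 1100.0, 1716 and 1877 CPM in 67NR tumors, 3642, 3390.1 and 2949 CPM in 4T07 tumors and 1707, 1759.7 and 2442 CPM in 4T1 tumors. All 3 of the 4T07 values lay above all others. B2m rose in 4T07 against 67NR (log2 fold change 0.83 ± 0.23 (SE), adjusted p = 0.00928), while the difference between 4T1 and 4T07 just missed the threshold of 0.05 in the edgeR fit (-0.70 ± 0.23, adjusted p = 0.0518) and passed in DESeq2. Between 4T1 and 67NR the ranges overlapped (adjusted p = 0.713).

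The classical heavy chain H2-K1 had 314, 417 and 329 CPM in 67NR tumors, 814, 743 and 811 in 4T07 tumors and 392, 437 and 511 in 4T1 tumors. H2-D1, the other classical heavy chain, had 848, 1290.2 and 1311 CPM, 3256, 2937 and 2792 and 1136, 1312 and 1625 in the same order. For both genes the 4T07 tumors were above both other groups without overlap, and the 67NR and 4T1 ranges overlapped. H2-K1 was 1.87-fold higher in 4T07 than in 67NR tumors (log2 fold change 0.91 ± 0.18 (SE), adjusted p = 0.000901), and H2-D1 2.18-fold higher (log2 fold change 1.12 ± 0.21 (SE), adjusted p = 0.000701). In 4T1 tumors, H2-K1 was 1.70-fold lower than in 4T07 (log2 fold change -0.77 ± 0.18 (SE), adjusted p = 0.00883), a call lost without 4T1 replicate 1 (adjusted p = 0.0594). H2-D1 was 2.13-fold lower (log2 fold change -1.09 ± 0.21 (SE), adjusted p = 0.00302), which held without any 1 library. Against 67NR, the fitted log2 fold changes of 4T1 were 0.14 ± 0.18 for H2-K1 and 0.03 ± 0.21 for H2-D1.

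The non-classical chains were scarcer and noisier. H2-T23 was near the floor in 67NR tumors, with 0.538, 1.12 and 0.282 CPM from 7 counts in all, against 4.62, 8.71 and 8.75 CPM in 4T07 and 2.56, 3.07 and 4.32 CPM in 4T1 tumors. The 3 groups did not overlap. It rose in both invasive tumors, with a log2 fold change of 3.21 ± 0.53 in 4T07 (adjusted p = 0.00019) and 2.11 ± 0.57 in 4T1 (adjusted p = 0.00951), whereas 4T1 against 4T07 did not pass (adjusted p = 0.0705). H2-M3 scattered widely, 12.1, 13.1 and 24.8 CPM in 67NR, 30.1, 45.7 and 20.6 in 4T07 and 20.8, 19.5 and 19.9 in 4T1 tumors, with overlap between every pair of groups, and passed in none of the 3 comparisons.

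In each of the 3 tumor comparisons the member with the largest fitted change was a transporter gene. Tap1, one subunit of the pump, was 60.7, 41.1 and 30.2 CPM in 67NR tumors, 349, 328 and 311 CPM in 4T07 tumors and 64.4, 45.7 and 77.9 CPM in 4T1 tumors. The 4T07 libraries were far above the other 6, which overlapped each other. Tap1 was 6.32-fold higher in 4T07 than in 67NR tumors (log2 fold change 2.66 ± 0.24 (SE), adjusted p = 7.22e-07) and 5.06-fold lower in 4T1 than in 4T07 (log2 fold change -2.34 ± 0.23 (SE), adjusted p = 9.58e-06). Both calls held under all 9 alternatives applied to single calls. These were DESeq2, its size factors in edgeR, no count filter and leaving out each of the 6 libraries compared. Tap2, the other subunit, had 2.69, 1.68 and 10.4 CPM in 67NR, 104, 169 and 42.3 in 4T07 and 30.5, 53.1 and 90.9 in 4T1 tumors, so that both invasive tumors lay above 67NR and overlapped each other. Tap2 rose in 4T07 (log2 fold change 4.17 ± 0.60 (SE), adjusted p = 5.68e-05) and in 4T1 tumors (log2 fold change 3.36 ± 0.59 (SE), adjusted p = 0.000474), and 4T1 against 4T07 had a fitted value of -0.81 ± 0.47 (adjusted p = 0.275).

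Of tapasin and the peptidase, only the peptidase passed between 4T1 and 4T07 tumors, and the genes were not tested against each other. Tapbp, the bridge between the transporter and the heavy chain, had 115, 119 and 98.2 CPM in 67NR, 314, 251 and 319 in 4T07 and 223, 213 and 279.5 in 4T1 tumors. As with Tap2, both invasive tumors were above 67NR and overlapped each other, and Tapbp rose in 4T07 (log2 fold change 1.16 ± 0.18 (SE), adjusted p = 9.05e-05) and in 4T1 (log2 fold change 0.91 ± 0.17 (SE), adjusted p = 0.000916). Erap1 was graded, 22.6, 22.4 and 26.0 CPM in 67NR, 75.1, 70.8 and 56.4 in 4T07 and 39.5, 37.1 and 45.1 in 4T1 tumors, 3 ranges without overlap. It rose in 4T07 (log2 fold change 1.26 ± 0.18 (SE), adjusted p = 5.62e-05) and less in 4T1 (log2 fold change 0.58 ± 0.18 (SE), adjusted p = 0.0226), and was lower in 4T1 than in 4T07 (log2 fold change -0.68 ± 0.17 (SE), adjusted p = 0.0144). The 4T1 calls of Erap1 depended on single libraries: against 67NR the call was lost without 67NR replicate 2 or 4T1 replicate 1 or 3 (adjusted p up to 0.115), and against 4T07 without 4T07 replicate 1 or 4T1 replicate 1 or 2 (up to 0.0818).

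Nlrc5, the transactivator of class I genes, had 17.5, 4.76 and 9.03 CPM in 67NR, 30.1, 38.6 and 32.5 in 4T07 and 19.4, 13.1 and 16.2 in 4T1 tumors. The 4T07 tumors were above all others, and the 67NR and 4T1 ranges overlapped. It rose in 4T07 against 67NR (log2 fold change 1.46 ± 0.32 (SE), adjusted p = 0.00207). The level in 4T1 was 2.00-fold lower than in 4T07 (adjusted p = 0.0366), a call that was lost on leaving out any 1 of the 6 libraries, with adjusted p up to 0.152.

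The subunits that reshape the proteasome for class I peptides also differed between tumors. All 5 genes of the immunoproteasome and its activator rose in 4T07 (22.9% of all genes) and all 5 in 4T1 tumors (16.7%) against 67NR. Of the 5, 3 were lower in 4T1 than in 4T07 (6.98% of all genes). The largest were Psmb9, with 16.1, 27.1 and 29.4, 213, 264 and 168 and 60.9, 83.0 and 138 CPM in 67NR, 4T07 and 4T1 tumors (2.90 ± 0.31 in 4T07 against 67NR, 1.76 ± 0.30 in 4T1 against 67NR and -1.14 ± 0.28 in 4T1 against 4T07), and Psmb8 (2.57 ± 0.21, 1.91 ± 0.21 and -0.66 ± 0.19). The list medians were 1.57, 1.16 and -0.64, against 0.16, 0.09 and -0.05 for all genes. Of the 3 constitutive subunits that the immunoproteasome subunits replace, Psmb6 (-1.23 ± 0.16) and Psmb5 (-1.20 ± 0.27) fell in 4T07 against 67NR tumors (18.5% of all genes). Psmb6 (-0.76 ± 0.16) fell in 4T1 against 67NR tumors (14.8% of all genes). None of the 3 passed between 4T1 and 4T07 (0 of 3 in edgeR, 2 at an unadjusted p under 0.05, and 1, Psmb6, by DESeq2).

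Of 4 peptide loading chaperones, 3 rose in 4T07 against 67NR tumors (22.9% of all genes), namely Tapbpl, a tapasin relative (1.32 ± 0.23), calreticulin (Calr, 0.62 ± 0.17) and Pdia3 (0.46 ± 0.16). Tapbpl alone of the 4 passed in 4T1 against 67NR (0.77 ± 0.23), and Calr alone in 4T1 against 4T07 (-0.63 ± 0.17). Among the 14 other class I and class I-like heavy chains with enough counts, 9 rose and 1 fell in 4T07 against 67NR (22.9% and 18.5% of all genes). In 4T1 against 67NR, 4 rose and 2 fell (16.7% and 14.8%), the share that fell being near that of all genes. In 4T1 against 4T07, 3 were lower (6.98% of all genes). Those 3 were H2-T24 (-2.08 ± 0.33), H2-Q7 (-1.54 ± 0.19) and Mr1, which presents vitamin B metabolites (-1.24 ± 0.21). Against a median gene of 0.16, the list median of 4T07 against 67NR was 1.42, or 1.07 with the 3 genes that had no count in 67NR tumors at their lower bound. Among those 3, H2-Q10 was at least 2.06-fold higher in 4T07 tumors (2.01, 2.00 and 1.13 CPM), taking 3 counts per library as the floor in 67NR.

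Among the regulators, of 18 interferon and class I regulator genes, 11 rose in 4T07 against 67NR tumors (22.9% of all genes did), among them Irf1 (2.39 ± 0.20) and Ciita (1.95 ± 0.33), the class II transactivator. In 4T1 against 67NR, 5 rose and 1 fell (16.7% and 14.8% of all genes), led by Jak2 (2.00 ± 0.19), Socs1, a feedback inhibitor of the pathway (-1.56 ± 0.26), and Ciita (1.48 ± 0.33). In 4T1 against 4T07, 7 were lower (6.98% of all genes) and 1, Jak2 (1.11 ± 0.18), was higher (7.69%). Ifng itself was rare, with 69 counts over the 4T07 tumors and 7 over the 4T1 tumors, a ratio of CPM of 10.5 (95% counting interval 4.84 to 27.1, an exact binomial interval that covers counting error only).

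Cell type markers differed between the same tumors. Of all genes, 22.9% rose and 18.5% fell in 4T07 against 67NR. In 4T1, 16.7% rose and 14.8% fell against 67NR, and 7.69% were higher and 6.98% lower than in 4T07. Summed T cell markers were 12.3 to 23.1 CPM in 67NR, 28.3 to 71.7 CPM in 4T07 and 17.7 to 59.9 CPM in 4T1 tumors, with 4 of 6 higher in 4T07 than in 67NR and none of 6 past the threshold between 4T1 and 4T07. Dendritic cell markers were 19.5 to 33.1, 58.8 to 77.3 and 40.4 to 50.7 CPM, B cell markers 2.80 to 8.47, 21.8 to 111 and 5.83 to 29.3 CPM, and neutrophil markers 19.2 to 370.4, 999.6 to 4882 and 512 to 800.4 CPM. NK cell markers ran the other way, 166 to 178, 62.1 to 74.4 and 30.6 to 42.4 CPM, with 3 of 5 lower in 4T07 than in 67NR and 3 of 5 lower in 4T1 than in 4T07. Ptprc, the pan-leukocyte marker, was 93.2 to 129, 109 to 194 and 91.9 to 140.4 CPM, and macrophage markers were 1693 to 1936, 1873 to 2451 and 1377 to 1676 CPM. Epithelial markers were 16.9 to 31.1, 161 to 229 and 940.4 to 1074 CPM, with 5 of 5 higher in both invasive tumors, and fibroblast markers 606 to 815, 3504 to 5402 and 4187 to 7035 CPM. Erythroid markers were 1397 to 1616, 4639 to 22223 and 1874 to 2335 CPM, and endothelial markers, of which none of 4 passed in any tumor comparison, 145 to 196, 152 to 279 and 149 to 177 CPM. No marker of these lists was at 0 over a whole group. Their part in the class I differences was not tested. Without 4T07 tumor replicate 1, which was high in neutrophil and erythroid markers, the 9 calls against 67NR stood, and 4 members (H2-K1, H2-D1, H2-T23 and Tap1) were lower in 4T1 than in 4T07.

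**Figure D2:**
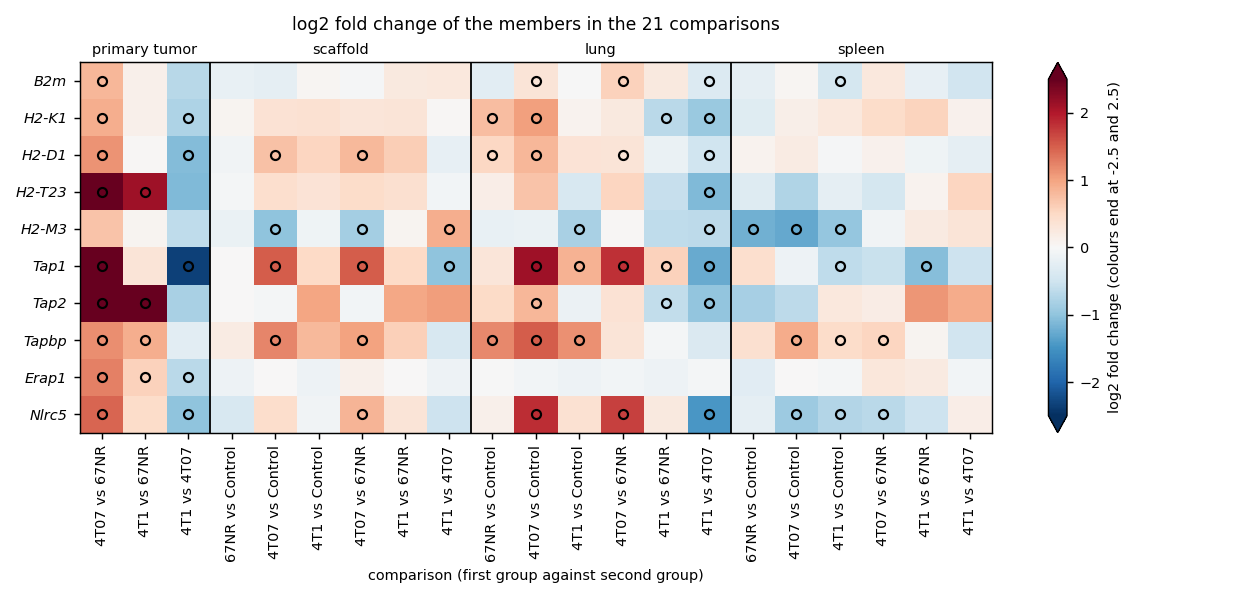
Fitted log2 fold change of each member (rows) in the 21 comparisons within tissues (columns); red is higher and blue lower in the first group, colours end where the colour bar does, and circles mark adjusted p under 0.05 in tumors and under 0.10 elsewhere. The column of 4T07 against 67NR tumors carries 9 circles and that of 4T1 against 4T07 lungs 8, while 3 scaffold columns and 1 spleen column carry none.

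In scaffolds the question was whether a tumor elsewhere in the body changed the class I genes of the niche. With the threshold of 0.10 used outside tumors, 4T07 scaffolds differed from Control scaffolds in 4 members: H2-D1, Tap1 and Tapbp rose, against 9.22% of the 22156 genes tested, and H2-M3 fell, against 8.5%. Against 67NR scaffolds the same 3 and Nlrc5 were higher (7.69% of genes) and H2-M3 lower (6.99%). No member passed for 67NR against Control, 4T1 against Control or 4T1 against 67NR in edgeR, where 0%, 0.0135% and 0.00903% of genes passed as higher and 0%, 0.00903% and 0.0135% as lower. At an unadjusted p under 0.05 these 3 comparisons had 0, 3 and 3 members (H2-D1, Tap2 and Tapbp in the latter), and DESeq2 passed 0, 1 and 1 (Tapbp). The median member change of 4T07 against Control was 0.39, and the median gene 0.04.

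Tap1 was 27.3, 39.6 and 32.1 CPM in Control scaffolds, 42.3, 29.7 and 32.8 in 67NR, 84.4, 93.2 and 134 in 4T07 and 42.4, 76.5 and 34.5 in 4T1 scaffolds. The 4T07 scaffolds were above all others, and 4T1 replicates 1 and 2 stood above every Control. Tap1 was 2.86-fold higher in 4T07 than in Control scaffolds (log2 fold change 1.52 ± 0.25 (SE), adjusted p = 0.00149). It was lower in 4T1 than in 4T07 (log2 fold change -1.01 ± 0.25 (SE), adjusted p = 0.0697), a call lost without 4T07 replicate 2 or 3 or 4T1 replicate 1 or 3 (adjusted p up to 0.207). Tapbp followed with 34.0, 55.6 and 57.1 CPM in Control, 63.2, 53.3 and 61.6 in 67NR, 111, 128 and 135 in 4T07 and 93.2, 110.0 and 74.9 in 4T1 scaffolds. The 4T07 values were the highest and the 4T1 values the next, with no overlap between either and any other group. Tapbp was 2.32-fold higher in 4T07 than in Control (log2 fold change 1.22 ± 0.18 (SE), adjusted p = 0.000928).

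H2-D1 was 836, 1254 and 1356 CPM in Control, 967, 1113 and 1327 in 67NR, 1728, 2295 and 2255 in 4T07 and 1422, 2285 and 1674 in 4T1 scaffolds. All 6 libraries of the invasive lines lay above all 6 of the other 2 groups. The rise in 4T07 against Control (log2 fold change 0.74 ± 0.22 (SE), adjusted p = 0.0347) was lost without Control replicate 1 or 4T07 replicate 2 or 3 (adjusted p up to 0.157), that against 67NR (0.82 ± 0.22) without 67NR replicate 1 (adjusted p = 0.11), and 4T1 against Control had a fitted value of 0.53 ± 0.21 (adjusted p = 0.342). The other classical chain, H2-K1, overlapped throughout, from 133, 221 and 233 CPM in Control to 214, 399 and 209 CPM in 4T07 scaffolds, and passed in no comparison. B2m passed in none either, with 2630.1, 2596 and 2669 CPM in Control, 2523, 2387 and 2369 in 67NR, 2065, 2817 and 2593 in 4T07 and 2166, 4387 and 2374 in 4T1 scaffolds.

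H2-M3 moved in the opposite direction to H2-D1, Tap1 and Tapbp. It had 22.0, 15.7 and 14.6 CPM in Control, 14.0, 17.5 and 17.7 in 67NR, 11.1, 8.06 and 9.32 in 4T07 and 14.7, 19.0 and 19.2 in 4T1 scaffolds, and the 3 of the 4T07 group were the lowest of the 12. It was 2.02-fold lower in 4T07 than in Control (log2 fold change -1.01 ± 0.23 (SE), adjusted p = 0.0082) and higher in 4T1 than in 4T07 (log2 fold change 0.92 ± 0.22 (SE), adjusted p = 0.0724), the latter call being lost without 4T07 replicate 2 or 3 or 4T1 replicate 3 (adjusted p up to 0.199). In 4T1 against 4T07 scaffolds, 1.3% of genes were higher and 0.84% lower. Nlrc5 passed only in 4T07 against 67NR (6.12, 6.29 and 10.1 against 3.33, 3.37 and 5.24 CPM; log2 fold change 0.84 ± 0.30 (SE), adjusted p = 0.0947), and lost the call without 67NR replicate 1 or 2 or 4T07 replicate 2 or 3 (adjusted p up to 0.345). H2-T23, Tap2 and Erap1 passed in none of the 6 scaffold comparisons.

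Of the 5 immunoproteasome genes, Psmb8 fell in 4T07 against Control (-0.54 ± 0.15) and none rose (0 at an unadjusted p under 0.05 and 0 by DESeq2), and of the 3 constitutive subunits Psmb5 (-1.30 ± 0.22) and Psmb6 (-0.91 ± 0.20) fell. In the same comparison, in which 9.22% of all genes rose and 8.5% fell, 3 of 18 interferon and regulator genes rose, Irf8 (0.72 ± 0.18), Rela (0.62 ± 0.17) and Nfkb1 (0.46 ± 0.17), 1 of 4 chaperones fell (Pdia3, -0.69 ± 0.24), and 1 of 12 other heavy chains rose and 1 fell. Neutrophil markers were 271 to 1758 CPM in Control and 1889 to 8099 CPM in 4T07 scaffolds (7 of 8 higher), and dendritic cell markers 447 to 586 and 650.5 to 864 CPM (1 of 5 higher). Erythroid markers were 1787 to 2191 and 3123 to 25114 CPM (5 of 6 higher). Ptprc, the pan-leukocyte marker, went the other way: it was 403 to 449.5 CPM in Control and 243 to 269 CPM in 4T07 scaffolds, without overlap, and fell. Macrophage markers were 2822 to 2986 and 2632 to 3172 CPM and NK cell markers 69.4 to 74.9 and 52.3 to 72.2 CPM (1 of 5 lower in each), T cell markers 7.87 to 9.44 and 6.37 to 18.3 CPM (1 of 6 higher), and B cell markers 7.60 to 9.76 and 9.32 to 83.5 CPM (2 of 4 higher). Of 4 fibroblast and 4 endothelial markers, 1 each was lower. Their part in the class I differences was not tested. Without 4T07 replicate 1, the same 4 members passed against Control and the same 5 against 67NR, in the same directions.

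Lungs of 4T07 mice had more members past the threshold against Control than any other tissue outside the tumors. Of the 10 members, 7 rose against Control lungs (B2m, H2-K1, H2-D1, Tap1, Tap2, Tapbp and Nlrc5) and none fell (0 at an unadjusted p under 0.05 and 0 by DESeq2). In that comparison 25.2% of the 21937 genes tested rose and 25% fell. The median member was 0.83 higher and the median gene -0.01. In 4T1 lungs, Tap1 and Tapbp rose against Control (7.45% of genes) and H2-M3 fell (4.34%). In 67NR lungs, H2-K1, H2-D1 and Tapbp rose (6.51% of genes), and none fell in edgeR (6.25%; 0 at an unadjusted p under 0.05), while DESeq2 passed B2m as lower. Between the invasive lines, 8 members were lower in 4T1 than in 4T07 lungs, all but Tapbp and Erap1, against 21.4% of genes, and none was higher, against 22.8% (0 at an unadjusted p under 0.05 and 0 by DESeq2).

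Tap1 had 30.3, 33.9 and 38.5 CPM in Control lungs, 41.2, 46.1 and 48.0 in 67NR, 162, 141 and 123 in 4T07 and 60.0, 75.3 and 49.8 in 4T1 lungs. The 3 lungs of each invasive line were above all Control and 67NR lungs, and the 4T07 lungs above the 4T1 lungs. Tap1 was 4.33-fold higher in 4T07 (log2 fold change 2.12 ± 0.16 (SE), adjusted p = 1.9e-09) and 1.82-fold higher in 4T1 lungs (log2 fold change 0.86 ± 0.16 (SE), adjusted p = 0.00153) than in Control lungs. Nlrc5 rose in 4T07 lungs only among the comparisons with Control: it had 2.96, 4.69 and 5.34 CPM in Control, 4.02, 5.36 and 5.79 in 67NR, 17.8, 14.5 and 12.4 in 4T07 and 4.83, 6.78 and 5.10 in 4T1 lungs, 3.57-fold higher in 4T07 (log2 fold change 1.84 ± 0.25 (SE), adjusted p = 4.86e-06). Its level in 4T1 was 2.75-fold lower than in 4T07 lungs (log2 fold change -1.46 ± 0.24 (SE), adjusted p = 5.87e-05).

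Tapbp rose in the lungs of all 3 tumor models. It had 31.9, 35.5 and 60.0 CPM in Control, 76.4, 124 and 111 in 67NR, 115, 123 and 108 in 4T07 and 115, 100.3 and 64.8 in 4T1 lungs, and every library of a tumor-bearing mouse was above every Control. The log2 fold changes against Control were 1.19 ± 0.23, 1.51 ± 0.23 and 1.15 ± 0.23 for 67NR, 4T07 and 4T1 (adjusted p = 0.00352, 1.77e-05 and 0.00276), and each call held under all 9 alternatives. No pair of the 3 models passed for Tapbp (adjusted p = 0.269, 0.944 and 0.226).

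Of the classical heavy chains, H2-K1 had 155, 159 and 159 CPM in Control, 199, 331 and 333 in 67NR, 203, 344 and 367 in 4T07 and 174, 179 and 146 in 4T1 lungs. In both the 67NR and the 4T07 group, replicate 1 stood well below the others, and all were above all Controls. H2-K1 was higher than in Control in 67NR (log2 fold change 0.77 ± 0.21 (SE), adjusted p = 0.0254) and in 4T07 lungs (log2 fold change 1.02 ± 0.21 (SE), adjusted p = 0.000422), and lower in 4T1 than in 4T07 (log2 fold change -0.93 ± 0.21 (SE), adjusted p = 0.0012). H2-D1 had 681, 646 and 717 CPM in Control, 812, 1076 and 1238 in 67NR, 1073, 1183 and 1220.5 in 4T07 and 807, 899.7 and 849 in 4T1 lungs, all tumor-bearing groups being above Control without overlap, and rose in 67NR (log2 fold change 0.51 ± 0.15 (SE), adjusted p = 0.0439) and 4T07 (log2 fold change 0.83 ± 0.15 (SE), adjusted p = 0.000155). In 67NR lungs the H2-K1 call was lost without 67NR replicate 2 or 3 and the H2-D1 call without either of these or Control replicate 1 or 2 (adjusted p up to 0.134 and 0.235). Both 4T07 calls held under all 9 alternatives, which do not include the fold criterion of 2, and that of H2-D1 was below 2-fold.

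B2m differed less, with 1517, 1499.6 and 1363 CPM in Control and 1707, 1809 and 1736 in 4T07 lungs (log2 fold change 0.32 ± 0.14 (SE), adjusted p = 0.0626), a call lost without Control replicate 3 or 4T07 replicate 2 and without the count filter (adjusted p up to 0.162). Tap2 was 16.6, 14.6 and 13.6 CPM in Control, 21.6, 19.3 and 25.8 in 67NR, 28.6, 21.1 and 27.1 in 4T07 and 12.6, 11.7 and 15.7 in 4T1 lungs, and rose in 4T07 (log2 fold change 0.84 ± 0.18 (SE), adjusted p = 0.000841). The non-classical chains passed only in comparisons of 4T1 lungs, and neither passed in 4T1 against 67NR. H2-T23 passed only between 4T1 and 4T07, with 3.39, 2.27 and 3.47 CPM in 4T07 and 1.29, 1.98 and 1.05 CPM in 4T1 lungs (adjusted p = 0.022). H2-M3 was 8.37, 3.53 and 8.25 CPM in 4T1 against 10.6, 13.0 and 12.1 CPM in Control lungs (log2 fold change -0.82 ± 0.27 (SE), adjusted p = 0.0677). That call was lost without Control replicate 1 or 2 or 4T1 replicate 2 (up to 0.319). Between 4T1 and 4T07 lungs, B2m (-0.34 ± 0.14) was lost without 4T07 replicate 2 or 4T1 replicate 1 and without the count filter (up to 0.146), and H2-M3 (-0.66 ± 0.28) without 4T07 replicate 1 or 2 or 4T1 replicate 2 (up to 0.266). Against 67NR lungs, 4T07 had 4 higher members (B2m, H2-D1, Tap1 and Nlrc5; 24.6% of genes) and none lower (25.8%; 0 at an unadjusted p under 0.05 and 0 by DESeq2), and 4T1 had Tap1 higher (7.24%) and H2-K1 and Tap2 lower (4.71%). Of these, H2-D1 was lost without 67NR replicate 1 or 4T07 replicate 2 or 3 and without the count filter (adjusted p up to 0.257). In 4T1, H2-K1 was lost without 67NR replicate 2 or 3 or 4T1 replicate 1 or 3 (up to 0.216), Tap2 without 67NR replicate 3 or 4T1 replicate 1 or 2 (up to 0.202), and Tap1 without 4T1 replicate 2 (0.211). Erap1 passed in no lung comparison, its 12 lung values lying between 22.4 and 32.8 CPM.

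At least 1 marker of each of the 12 lists passed between 4T07 and Control lungs, where 25.2% of all genes rose and 25% fell. In 4T1 against Control lungs, 7.45% rose and 4.34% fell. Neutrophil markers were 242 to 308 CPM in Control, 247 to 283 in 67NR, 22133 to 26183 in 4T07 and 11619.9 to 27489 in 4T1 lungs (8 of 8 higher in both invasive models). Lung epithelium markers were 34911 to 37028, 30629 to 37121, 5693 to 14287 and 28467 to 35452 CPM in the same order, with 5 of 5 lower in 4T07 than in Control and 0 of 5 past the threshold in 4T1. Endothelial markers were 2472 to 2623, 2642 to 2868, 697 to 1143 and 2361 to 2573 CPM (4 of 4 lower in 4T07), and erythroid markers 17747 to 26192, 21209.8 to 28838, 71540.1 to 92368 and 26414 to 36516 CPM (6 of 6 higher in 4T07). T cell markers were 29.1 to 30.3, 22.7 to 35.3, 51.4 to 67.3 and 26.7 to 33.8 CPM (5 of 6 higher in 4T07) and B cell markers 72.0 to 95.9, 73.3 to 90.9, 271 to 349.8 and 48.2 to 59.5 CPM (4 of 4 higher in 4T07). Ptprc, the pan-leukocyte marker, was 184 to 224, 122 to 137, 238 to 299.6 and 259 to 401 CPM (higher in both invasive models and lower in 67NR), and macrophage markers 336 to 385, 318 to 337, 521 to 736 and 358 to 390.1 CPM (3 of 5 higher in 4T07). NK cell markers were 105 to 154, 64.0 to 85.3, 62.5 to 79.3 and 102 to 121 CPM (3 of 5 lower in 4T07), and dendritic cell markers 129.9 to 142, 137 to 151, 103 to 109.6 and 118 to 145 CPM (2 of 5 higher and 2 lower in 4T07). In 4T07 lungs 3 of 4 fibroblast and 5 of 5 epithelial markers were lower too. Their part in the class I differences was not tested.

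Of 13 other heavy chains tested, 6 rose and 1 fell in 4T07 against Control lungs, led by H2-Q7 (113, 124 and 114 against 35.4, 33.4 and 42.7 CPM; 1.72 ± 0.21), H2-Q4 (1.17 ± 0.22) and H2-T24 (0.99 ± 0.24). In 67NR against Control lungs 3 rose (6.51% of all genes), H2-Q7 (1.10 ± 0.20), the neonatal Fc receptor gene Fcgrt (0.62 ± 0.18) and Cd1d1 (0.59 ± 0.19). H2-Q7 alone passed in 4T1 lungs (0.69 ± 0.21). Of the 5 immunoproteasome genes, Psmb9 rose in 4T07 lungs (0.64 ± 0.16) while the activator subunits Psme1 (-0.57 ± 0.16) and Psme2 (-0.42 ± 0.16) fell, and 3 of 4 chaperones fell. Of 18 interferon and regulator genes, 5 rose and 2 fell in 4T07 lungs, where 25.2% of all genes rose and 25% fell, so the share that rose was near that of all genes. Those with the widest changes were Socs1 (1.31 ± 0.31), Irf8 (1.13 ± 0.14) and Irf9 (0.77 ± 0.15). In 4T1 lungs 2 rose (7.45% of all genes), among them Ifngr1 (0.46 ± 0.14).

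**Figure D3:**
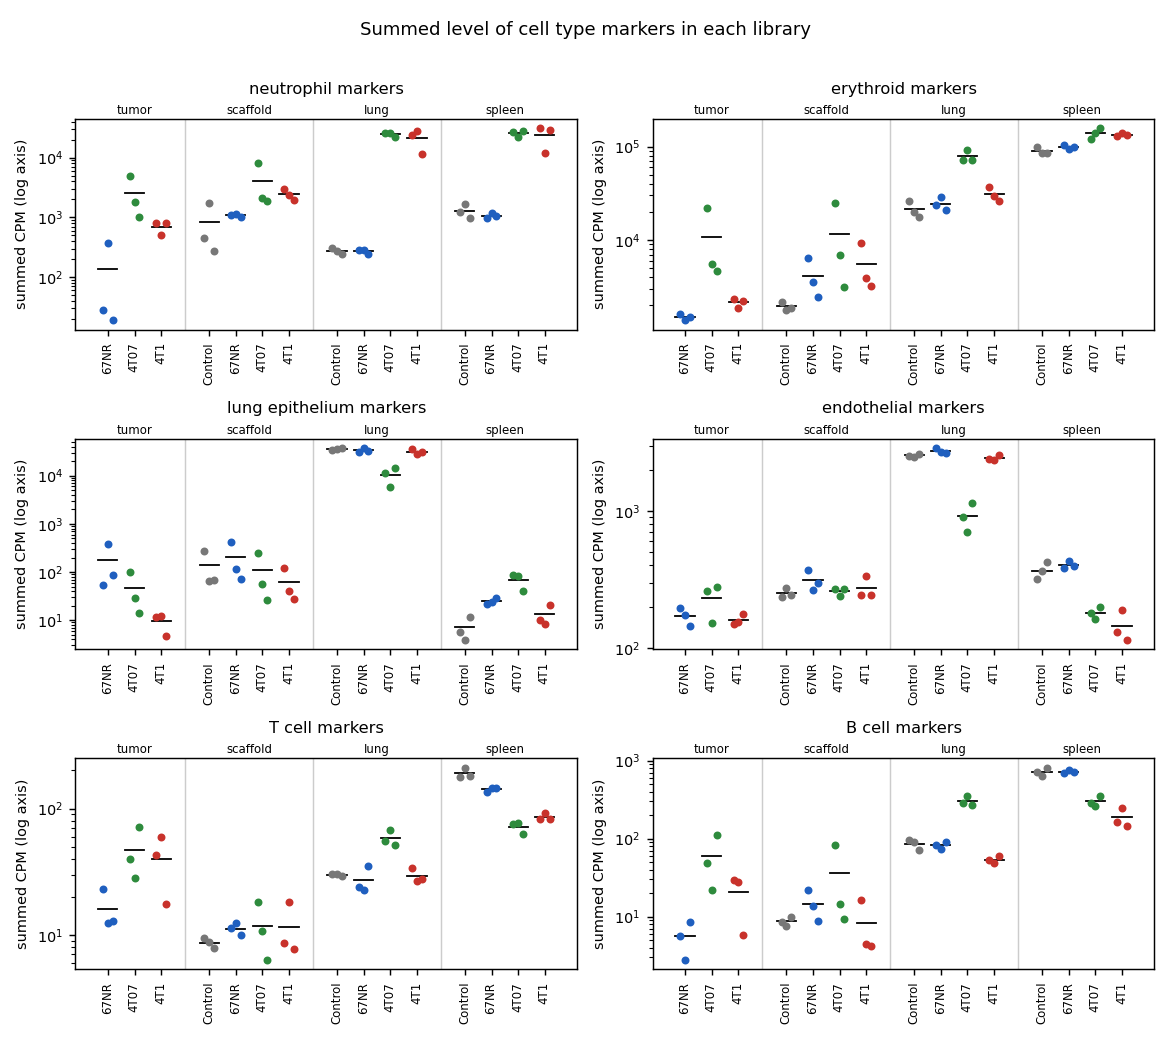
Summed level (CPM, log axis) of 6 lists of cell type markers in each library, by tissue and group; points are libraries and short lines group means. Neutrophil markers reach 308 CPM at most in Control and 67NR lungs and lie between 11619.9 and 27489 CPM in 4T07 and 4T1 lungs, and lung epithelium and endothelial markers are lowest among lungs in the 4T07 group.

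In spleens the members moved in both directions. Against Control spleens, 4T07 had Tapbp higher (16% of the 21128 genes tested) and H2-M3 and Nlrc5 lower (16.5%). In 4T1 spleens Tapbp was higher (18% of genes) and B2m, H2-M3, Tap1 and Nlrc5 were lower (17.1%). Of the 10 members, the 1 higher and 2 lower in 4T07 and the 1 higher in 4T1 were counts not far from the shares of all genes. In 67NR spleens H2-M3 was lower (2.54% of genes), and none was higher (3.69%; 0 at an unadjusted p under 0.05 and 0 by DESeq2). Between 4T1 and 4T07 no member passed in edgeR, against 1.97% and 2.26% of genes higher and lower (3 lower at an unadjusted p under 0.05, and 1, B2m, by DESeq2). The median member change was -0.14 for 4T1 and -0.06 for 4T07 against Control, with median genes of -0.10 and -0.09.

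Nlrc5 had 17.3, 19.2 and 15.7 CPM in Control spleens, 14.7, 17.6 and 15.5 in 67NR, 9.06, 10.0 and 5.15 in 4T07 and 9.59, 10.8 and 5.94 in 4T1 spleens. All 6 spleens of the invasive models were below all 6 others. It fell in 4T07 (log2 fold change -0.91 ± 0.25 (SE), adjusted p = 0.0136), a change below 2-fold. That call held under all 9 alternatives, which do not include the fold criterion of 2. Its fall in 4T1 (log2 fold change -0.74 ± 0.25 (SE), adjusted p = 0.0372) was lost without Control replicate 2 or 4T1 replicate 3 (adjusted p up to 0.17). Against 67NR it was lower in 4T07 (log2 fold change -0.68 ± 0.25 (SE), adjusted p = 0.0676), a call lost without 67NR replicate 2 or 3 or 4T07 replicate 1 or 3 (up to 0.203).

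Tap1 was 70.5, 120.0 and 126 CPM in Control, 147, 167 and 137 in 67NR, 68.4, 97.5 and 88.8 in 4T07 and 47.7, 78.1 and 44.3 in 4T1 spleens. The 67NR spleens were above every other spleen, while the Control and 4T1 ranges overlapped. Tap1 was 2.09-fold lower in 4T1 than in 67NR spleens (log2 fold change -1.06 ± 0.24 (SE), adjusted p = 0.0034), the only member to pass there (17.5% of genes lower and 18.6% higher; 0 members higher at an unadjusted p under 0.05 and 0 by DESeq2). Its fall against Control (log2 fold change -0.64 ± 0.24 (SE), adjusted p = 0.0544) was lost without Control replicate 2 or 3 or 4T1 replicate 1 or 3 (adjusted p up to 0.188). B2m was 2193, 1955 and 1969 CPM in Control and 1352, 1370.0 and 1092 in 4T1 spleens, without overlap, and its fall (log2 fold change -0.43 ± 0.17 (SE), adjusted p = 0.075) was lost without either of Control replicates 1 and 2 or any 1 of the 4T1 replicates, and without the count filter (up to 0.253).

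Tapbp went up where other members went down. It had 63.7, 91.1 and 101 CPM in Control, 110.3, 131 and 118 in 67NR, 119.6, 139 and 173 in 4T07 and 88.7, 115 and 91.9 in 4T1 spleens, and rose in 4T07 against Control (log2 fold change 0.94 ± 0.20 (SE), adjusted p = 0.00214). Against 67NR, 4T07 was also higher (log2 fold change 0.54 ± 0.19 (SE), adjusted p = 0.059; 13.1% of genes higher and 14% lower), a call lost without 67NR replicate 1 or 3 or 4T07 replicate 2 or 3 (up to 0.188). The rise in 4T1 against Control (log2 fold change 0.47 ± 0.20 (SE), adjusted p = 0.0868) overlapped the Control range and was lost by DESeq2, with its size factors, without the count filter and without Control replicate 1 or 2 or any 1 of the 4T1 replicates (up to 0.285).

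H2-M3 and Tap2 varied widely among spleens of 1 group. H2-M3 had 40.4, 30.9 and 15.1 CPM in Control, 16.1, 11.2 and 12.8 in 67NR, 17.5, 8.80 and 5.15 in 4T07 and 11.7, 14.2 and 11.2 in 4T1 spleens. It fell in 67NR (log2 fold change -1.20 ± 0.35 (SE), adjusted p = 0.0702), 4T07 (log2 fold change -1.29 ± 0.35 (SE), adjusted p = 0.0132) and 4T1 (log2 fold change -0.97 ± 0.35 (SE), adjusted p = 0.0488), and of these only the 4T07 call held without every single library, while that of 67NR was lost without any 1 of its own libraries or Control replicate 1 or 2 (adjusted p up to 0.278), and that of 4T1 without Control replicate 1 or 2 or 4T1 replicate 1 or 3 (up to 0.208). Tap2 had 44.1, 31.1 and 4.53 CPM in Control, 36.9, 7.41 and 2.92 in 67NR, 25.1, 16.4 and 3.15 in 4T07 and 21.3, 30.9 and 29.2 in 4T1 spleens, and passed in no comparison. In each of the Control, 67NR and 4T07 groups, the library with the highest H2-M3 also had the highest H2-K1 and Tap2. H2-K1, H2-D1, H2-T23 and Erap1 passed in no spleen comparison.

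Markers differed between the same spleens. Against Control, 16% of all genes rose and 16.5% fell in 4T07, and 18% rose and 17.1% fell in 4T1. Neutrophil markers were 969 to 1689 CPM in Control, 963 to 1204 in 67NR, 22382 to 27377 in 4T07 and 11922 to 30660.2 in 4T1 spleens (8 of 8 higher in both invasive models). B cell markers were 641 to 804, 691 to 749.8, 265 to 354 and 146 to 249 CPM (3 of 4 lower in both), and T cell markers 178 to 209, 136 to 146, 63.0 to 77.0 and 82.5 to 92.3 CPM (6 of 6 lower in 4T07 and 5 of 6 in 4T1). Ptprc, the pan-leukocyte marker, was 746 to 818, 489.5 to 556, 262 to 292 and 313 to 379.8 CPM (lower in all 3 models). Dendritic cell markers were 156 to 169, 133 to 162, 76.2 to 102 and 79.1 to 105 CPM and macrophage markers 1329 to 1912, 1265 to 1387, 910.5 to 983 and 608 to 859 CPM, each with 3 of 5 lower in 4T07 and 4 of 5 in 4T1, and NK cell markers 164 to 221, 83.1 to 136, 49.8 to 85.0 and 40.7 to 76.6 CPM (5 of 5 lower in both). Erythroid markers were 84885 to 98588, 94072 to 105191, 119212 to 156208 and 128227 to 139479 CPM (3 of 6 higher in 4T07 and 5 of 6 in 4T1). Their part in the class I differences was not tested. Of 18 interferon and regulator genes, 4 fell in 4T07 (16.5% of all genes) and 8 in 4T1 (17.1%) against Control spleens, the first a share not far from that of all genes, and none rose in either (1, Socs1 in 4T07, at an unadjusted p under 0.05, and 0 by DESeq2), with Ciita (-1.35 ± 0.20 and -1.05 ± 0.20) and Irf8 (-0.79 ± 0.16 and -0.83 ± 0.16), both abundant in antigen-presenting cells, the largest. Of the 5 immunoproteasome genes, 3 fell in 4T07 (Psmb9, Psmb8 and Psme2, -1.03 ± 0.31, -0.82 ± 0.23 and -0.59 ± 0.23) and 1 in 4T1 (Psmb8, -0.94 ± 0.23). Of 4 chaperones, Calr rose (0.86 ± 0.21 in 4T07 and 0.70 ± 0.21 in 4T1) and Tapbpl fell (-1.03 ± 0.32 and -1.12 ± 0.32).

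Whether 4T1 and 4T07 mice differed by the same amount in each tissue was tested as a difference of differences in the fit across all 45 libraries, which again takes no account of tissues that share an animal. Tap1 was lower in 4T1 than in 4T07 by more in tumors than in scaffolds (log2 fold change -1.28 ± 0.33 (SE), adjusted p = 0.0151), lungs (log2 fold change -1.12 ± 0.33 (SE), adjusted p = 0.0122) and spleens (log2 fold change -1.74 ± 0.33 (SE), adjusted p = 0.000472). Against scaffolds, B2m (-0.92 ± 0.28), H2-D1 (-0.84 ± 0.28) and H2-M3 (-1.50 ± 0.45) passed too, 4 members in all against 5.69% of the 27656 genes in either direction. Against lungs, Erap1 (-0.65 ± 0.24) passed beside Tap1, 2 of the 10 members against 23.1% of genes, a share near that of all genes. Against spleens, H2-D1 (-0.78 ± 0.28) passed beside Tap1, 2 members against 7.55%. All values that passed were negative. The Tap1 differences against lungs and spleens held under all 15 alternatives, and that against scaffolds was lost without 4T1 scaffold replicate 2, the library with the highest Tap1 of its group (adjusted p = 0.115). That of B2m was lost without any 1 of 5 libraries (4T07 or 4T1 tumor replicate 1, 4T1 tumor replicate 2, 4T07 scaffold replicate 1 and 4T1 scaffold replicate 2), with adjusted p up to 0.229, and that of H2-M3 without 4T07 tumor replicate 2 or 4T1 scaffold replicate 3 (up to 0.189). That of H2-D1 against scaffolds was lost without tumor replicate 1 or 2 of either line, 4T07 scaffold replicate 1, or 4T1 scaffold replicate 2 or 3 (up to 0.215), and against spleens without any 4T07 tumor, 4T1 tumor replicate 1 or 2, 4T07 spleen replicate 2 or 3, or 4T1 spleen replicate 1 or 2 (up to 0.236). That of Erap1 was lost without 4T07 replicate 1 of tumor or lung, 4T1 tumor replicate 2 or 4T1 lung replicate 3, and without the count filter (up to 0.155).

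**Figure D4:**
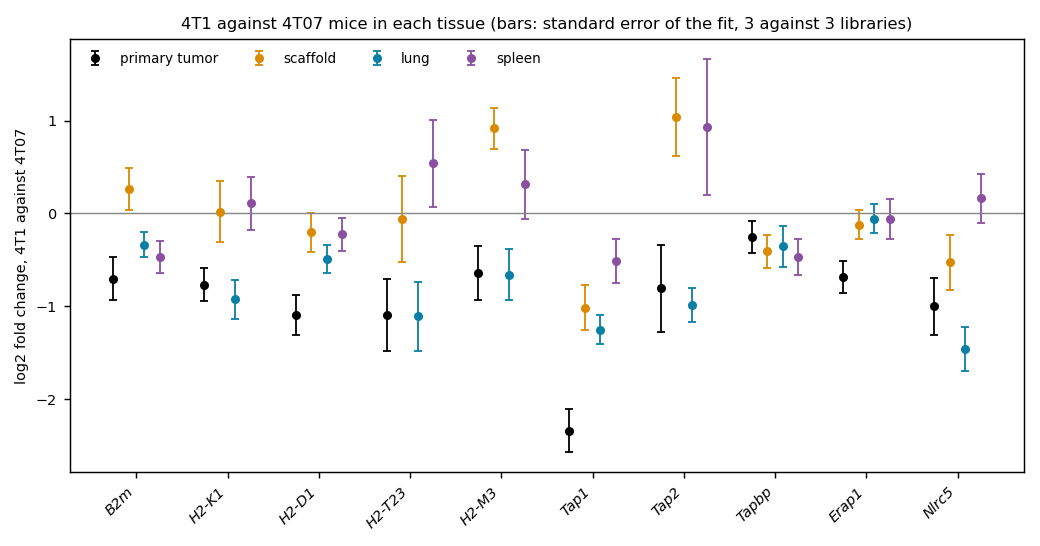
Fitted log2 fold change of 4T1 against 4T07 mice for each member in each tissue (3 against 3 libraries); points are estimates from the fit of that tissue and bars are the standard error either side. Tap1 lies at -2.34 in tumors and between -1.25 and -0.51 in the other tissues, while H2-M3 lies at 0.92 in scaffolds and at -0.64 in tumors.

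Lung and spleen were compared in the same way, a pair of tests chosen after the data were seen. The change of 4T07 against Control differed between lung and spleen for Tap1 (log2 fold change 2.13 ± 0.34 (SE), adjusted p = 6.21e-06) and Nlrc5 (log2 fold change 2.63 ± 0.41 (SE), adjusted p = 6.36e-06), 2 members against 20.6% of genes, and that of 4T1 against Control for Tap1 (log2 fold change 1.51 ± 0.34 (SE), adjusted p = 0.00229) and Nlrc5 (log2 fold change 1.12 ± 0.43 (SE), adjusted p = 0.0818), 2 against 15.5%. In both comparisons, 2 of the 10 members was a share near that of all genes. Nlrc5 rose in 4T07 lungs and fell in 4T07 spleens. The 4T1 value of Nlrc5 was lost without any 1 of 7 libraries (Control lung replicates 1 and 2, Control spleen replicates 1 and 2, 4T1 lung replicate 2, and 4T1 spleen replicates 1 and 3; adjusted p up to 0.227), and the other 3 held under all 15 alternatives.

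The members were also compared with one another within tissues, as correlations of log2(CPM + 1) with the mean of the 10 standardized members, each member itself included, over the 9 tumor libraries and the 12 libraries of each other tissue. Members and mean share libraries and depth, so these values are descriptions, as are those of the other genes below. In tumors all 10 members followed the mean, with r from 0.78 for H2-M3 to 0.99 for Erap1. In scaffolds H2-M3 ran against it (r = -0.35), in spleens Tapbp did (r = -0.41), and in lungs Erap1 was unrelated (r = -0.03). H2-D1 was closest over the 4 tissues, with a mean r of 0.89. Among 9499 other genes, H2-Q7, another class I heavy chain, had the most similar pattern (mean r 0.85), and Eif2ak3, which encodes the endoplasmic reticulum stress kinase PERK, was among the 3 closest (mean r 0.82). H2-Q7 had 59.4, 43.9 and 32.2 CPM, 252, 294 and 227 and 86.5, 80.8 and 89.4 in 67NR, 4T07 and 4T1 tumors. As a close copy of the member heavy chains it may share reads with them. No 50-base word of their annotated transcript ends was found in H2-Q7, but such words do not measure how far reads mix. Whether H2-Q7 shares reads with the members was not tested.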

How the data were processed

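The authors prepared QuantSeq 3' mRNA libraries with unique molecular identifiers and, per the submitters' processing notes, used Trim Galore 0.5.0, STAR 2.6.0 and featureCounts; the genome build, the annotation and whether identifiers were used to remove duplicates are not given in the sources used here. The deposited table holds raw counts per gene symbol (55487 lines, 120 of which repeat a symbol and were summed), from 3491888 to 8175380 per library.

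Counts were tested in R 4.3.3 with edgeR 4.0.16 (quasi-likelihood F test, TMM factors), one fit per tissue with all its groups, for genes with more than 10 counts, with Benjamini-Hochberg adjustment over all genes. Adjusted p under 0.05 (tumors) or 0.10 (other tissues) passed; these are the study's thresholds, but its further criterion of a fold change over 2 was applied as an alternative only. Control tissues and differences between tissues came from one fit of all 45 libraries; leaving a library out of that fit kept its trended dispersions. The scripts were tested on simulated data. Over genes past the filter, log2(CPM + 1) correlated at 0.967 to 0.991 between libraries of a group, no pair was identical, and a group of 3 libraries is taken as 3 mice, the number of mice per condition that the study gives.

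Alternatives were DESeq2 1.42.0, its size factors in place of TMM, testing genes without the count filter, a fold criterion of 2, and leaving out each library. The fold criterion was applied to counts of genes that passed, and not to single calls. The members, the 5 pathway lists (18 other class I heavy chains, 4 chaperones, 5 immunoproteasome and 3 constitutive proteasome genes, 18 interferon and regulator genes) and the 12 marker lists were chosen with earlier results of these data known. From each list, at most 3 genes a comparison are named, those with the largest absolute log2 fold change among genes that passed; values of 2 genes are not reported here. Sequences came from RefSeq (GRCm38.p6).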

Additional observations from a re-analysis of the deposited data

Results flagged for a closer look

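The results flagged here are members whose difference between 2 groups of mice was itself different in 2 tissues, by the test of that difference in the fit of all 45 libraries (edgeR, adjusted p under 0.10). For 4T1 against 4T07, tumors minus scaffolds, the log2 differences were -0.92 ± 0.28 for B2m (adjusted p = 0.0447), -0.84 ± 0.28 for H2-D1 (0.0772), -1.50 ± 0.45 for H2-M3 (0.0431) and -1.28 ± 0.33 for Tap1 (0.0151). For tumors minus lungs they were -1.12 ± 0.33 for Tap1 (0.0122) and -0.65 ± 0.24 for Erap1 (0.0468). For tumors minus spleens they were -0.78 ± 0.28 for H2-D1 (0.096) and -1.74 ± 0.33 for Tap1 (0.000472). Of all genes, 5.69%, 23.1% and 7.55% passed against scaffolds, lungs and spleens, so the 2 of 10 members against lungs were near that share. H2-M3 had fitted changes of -0.64 ± 0.29 in tumors (adjusted p = 0.162) and 0.92 ± 0.22 in scaffolds (adjusted p = 0.0724).

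Lung minus spleen was compared after the data were seen. For 4T07 against Control the difference was 2.13 ± 0.34 for Tap1 (adjusted p = 6.21e-06) and 2.63 ± 0.41 for Nlrc5 (6.36e-06). For 4T1 against Control it was 1.51 ± 0.34 for Tap1 (0.00229) and 1.12 ± 0.43 for Nlrc5 (0.0818). Of all genes, 20.6% and 15.5% passed in these comparisons, so the 2 of 10 members in each were near that share. Dixon's test for a single outlying library was not applied to groups of 3.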

How the results depend on the processing

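The 98 member calls were recomputed under each alternative except the fold criterion of 2. Of these calls, 57 were kept in every such alternative, 41 were lost in at least 1 and 0 turned direction. DESeq2 lost 2 calls, its size factors in edgeR 2, no count filter 9 and leaving out single libraries 41. All 9 calls of 4T07 against 67NR tumors were kept in every such alternative, and so were 4 of the 5 Tap1 calls in lungs. The fold criterion would have removed some of them. B2m (log2 fold change 0.83) and H2-K1 (0.91) in these tumors, and Tap1 in 4T1 against Control lungs (0.86), changed by less than 2-fold.

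Counts of members that passed moved by over 1.5 times in these cases. Requiring a fold change over 2 left 2 in 4T1 against 67NR tumors, 3 in 4T1 against 4T07 tumors, 2 and 1 in 4T07 against 67NR and 4T1 against 4T07 scaffolds, 1, 4 and 1 in 67NR, 4T07 and 4T1 against Control lungs, 2, 0 and 3 in 4T07 against 67NR, 4T1 against 67NR and 4T1 against 4T07 lungs, 1, 0 and 0 in 4T07 against Control, 4T1 against Control and 4T07 against 67NR spleens, 1 and 3 in Control scaffolds against lungs and spleens, and 2, 1 and 1 for tumors minus scaffolds, lungs and spleens. DESeq2 gave 1 in 4T1 against Control and 4T1 against 67NR scaffolds and 4T1 against 4T07 spleens, and 4 for tumors minus spleens. Without the count filter, the last was 5, both scaffold counts were 2, and the spleen counts were 2 (67NR against Control), 3 (4T1 against Control), 4 (4T07 against 67NR), 3 (4T1 against 67NR) and 1 (4T1 against 4T07). The cause was not tested.

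Leaving out single libraries gave ranges of 2 to 5 in 4T1 against 4T07 tumors, 3 to 5 and 0 to 2 in 4T07 against 67NR and 4T1 against 4T07 scaffolds, 1 to 3 and 1 to 4 in 67NR against Control and 4T1 against 67NR lungs, 0 to 1, 0 to 4, 0 to 1, 1 to 2 and 0 to 1 in 67NR against Control, 4T1 against Control, 4T07 against 67NR, 4T1 against 67NR and 4T1 against 4T07 spleens, 2 to 5 in Control scaffolds against lungs, and 1 to 4, 1 to 3 and 1 to 4 for tumors minus scaffolds, lungs and spleens. Such a fit has fewer libraries. No paired analysis was possible because the labels give no replicate numbers shared between groups.

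With 3 libraries a group, the standard error was the largest among members for H2-T23 in every comparison of scaffolds or of lungs, and for Tap2 in every comparison of tumors, of spleens or between Control tissues. Class I heavy chains share sequence, and Balb/c differs from the reference in these genes. Cell makeup differed between groups in every tissue, and levels per cell were not measured.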
